A study of Macaca mulatta with 22 samples.

Results

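Nuclear receptors are transcription factors, most of them switched by small fat-soluble ligands such as retinoic acid, vitamin D, oxysterols and fatty acids, and their coregulators are the proteins that the bound receptors recruit to raise or lower transcription. 34 genes of this kind were examined in ovulatory follicles of the rhesus macaque (Macaca mulatta). They are the genes with symbols of the receptor subfamilies ESR, NR0B, NR1H, NR1I, NR2, NR6, PPAR, RAR, ROR, RXR and VDR, or of the coregulator families NCOA, NCOR, NRIP and PPARGC, that the platform's annotation ties to a probe set of a single gene, with NR5A1, NR5A2, NR4A1, NR4A2, NR3C1 and NR1D1 left out. They form 34 of the 14132 genes named in that way, and 69 probe sets measure them. The genes were chosen by symbol, and only the probe set that stands for each was taken by a measured value, its mean over all 22 arrays. Other genes of these and related families were not analysed here.

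In the preovulatory follicle the mid-cycle gonadotropin surge turns estrogen-producing granulosa and theca cells into progesterone-producing luteal cells, and at the end of that change the follicle wall opens. Retinoic acid receptors and the vitamin D receptor bind DNA as partners of the retinoid X receptors, and the peroxisome proliferator and liver X receptors pair with the same partner. Without ligand many of these pairs hold corepressors such as NCOR1, and with ligand they exchange them for coactivators of the NCOA family. In mice, loss of the corepressor NRIP1 leaves females unable to release their oocytes.

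Single dominant follicles were collected after a controlled ovulation protocol in which every animal, including those of the 0 h group, received the GnRH antagonist Acyline together with recombinant human FSH and LH at 30 IU each. The 0 h group of 6 follicles received no ovulatory stimulus. The other groups received 1000 IU of human chorionic gonadotropin (hCG), which acts through the LH receptor, and 4 follicles each were taken 12 h later, 24 h later, 36 h later while still unruptured, and 36 h later after rupture. Each follicle gave 1 Affymetrix array from 2 µg of total RNA. The sample titles speak of ovulatory follicles while most sample descriptions speak of a developing corpus luteum. The labels do not say which follicles came from separate animals, and the p-values cover no more than the variation among these arrays, which may be partly technical. Whole follicles were frozen, and in such bulk tissue fewer cells of a type and less RNA per cell cannot be told apart.

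The 22 arrays had median intensities between 26.1 and 26.7 and a median of 4.73 on the log2 scale, and all pairs of arrays correlated between 0.870 and 0.918. The number of arrays limits the precision. 9 members had a mean below 4.63, the median probe set mean, and the sizes of their changes are the least certain: these are ESR1, NR0B1, NR1I2, NR1I3, NR2E1, NR2E3, NR6A1, PPARGC1A and RORB. INHA, an inhibin subunit of granulosa cells, averaged 11.74 at 0 h, and CYP17A1, the androgen-forming enzyme of theca cells, averaged 12.05, both far above the median of the arrays. All levels and changes given here are on the log2 intensity scale unless a fold is named, and a gene is represented by its brightest probe set. A change is called at an adjusted p under 0.05 in limma, with the Benjamini-Hochberg adjustment over all 52766 probe sets.

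Over the 5 groups together, 10 of the 34 genes differed in the F test, or 29.4%. Of all probe sets 20.1% were called, and of all 14132 genes, each by its brightest probe set, 29.0%. The share among the 34 genes was therefore near that of genes in general. The 10 were RARG with an adjusted p of 0.000106, NCOA2 (0.000384), NCOA5 (0.000451), NR2F2 (0.000505), RARB (0.00254), RORA (0.00296), NCOA3 (0.00773), NR0B1 (0.0169), RXRA (0.0217) and RORB (0.0454). 18 of the 34 had an unadjusted p under 0.05. 6 further genes, ESR1, NCOR1, NRIP1, PPARA, PPARG and VDR, were called in at least 1 of the 7 comparisons between groups, which makes 16 called in some comparison, and 18 were called in none. The share of all genes was not taken for calls in any comparison, or for unadjusted p-values here and below. These counts are therefore not compared with genes in general.

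In the 12 h follicles RORA and NCOA5 were higher than in the 0 h follicles and NCOR1, NRIP1 and PPARG were lower. The 5 calls are 14.7% of the 34 genes, beside 9.33% of all probe sets (4.28% higher, 5.05% lower) and 14.3% of all genes (6.5% higher, 7.8% lower). In the 24 h follicles NCOA2 and RARB were higher than in the 12 h follicles and NCOA5 was lower. That is 8.82% of the genes beside 6.88% of all probe sets (3.67% higher, 3.2% lower) and 10.9% of all genes (5.84% higher, 5.02% lower). In fits of the 2 compared groups alone, RORA kept its call at 12 h and the other 4 lost theirs, and all 3 calls at 24 h against 12 h were lost. None of the 34 was called between unruptured 36 h and 24 h follicles, where limma called 0.00379% of all probe sets (0% higher, 0.00379% lower) and 2 of the 34 had an unadjusted p under 0.05.

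Between ruptured and unruptured follicles of the same hour, 6 of the 34 genes were lower after rupture, RARG, RARB, NR2F2, NCOA2, NCOA3 and PPARA, and only RORB was higher. These 7 are 20.6% of the 34, beside 9.82% of all probe sets (4.83% higher, 4.99% lower) and 14.1% of all genes (6.47% higher, 7.67% lower). The median change of the 34 genes in that comparison was 0.04, against -0.03 over all probe sets, so the 34 as a whole did not lean downward. In a fit of these 2 groups alone RARG, NR2F2 and NCOA2 kept their calls and RARB, NCOA3, PPARA and RORB lost theirs. Against 0 h, 0 genes were called at 24 h with limma (10 had an unadjusted p under 0.05), where 3.36% of all probe sets were (1.66% higher, 1.69% lower) and 5.49% of all genes. In unruptured 36 h follicles NCOA3 was higher and NCOA5 lower than at 0 h, beside 4.72% of all probe sets (2.08% higher, 2.65% lower) and 7.18% of all genes (3.35% higher, 3.82% lower). In ruptured follicles RORA, NR0B1, RXRA and VDR were higher than at 0 h and RARG, RARB, NR2F2, NCOA2 and ESR1 were lower. They are 26.5% of the 34, beside 15.8% of all probe sets (7.01% higher, 8.78% lower) and 21.3% of all genes (9.43% higher, 11.8% lower). In 2-group fits against 0 h, NCOA5 lost its call in unruptured follicles and ESR1 and RARB lost theirs in ruptured follicles. These comparisons share groups, the 0 h follicles above all, and are not independent of each other.

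**Figure D1:**
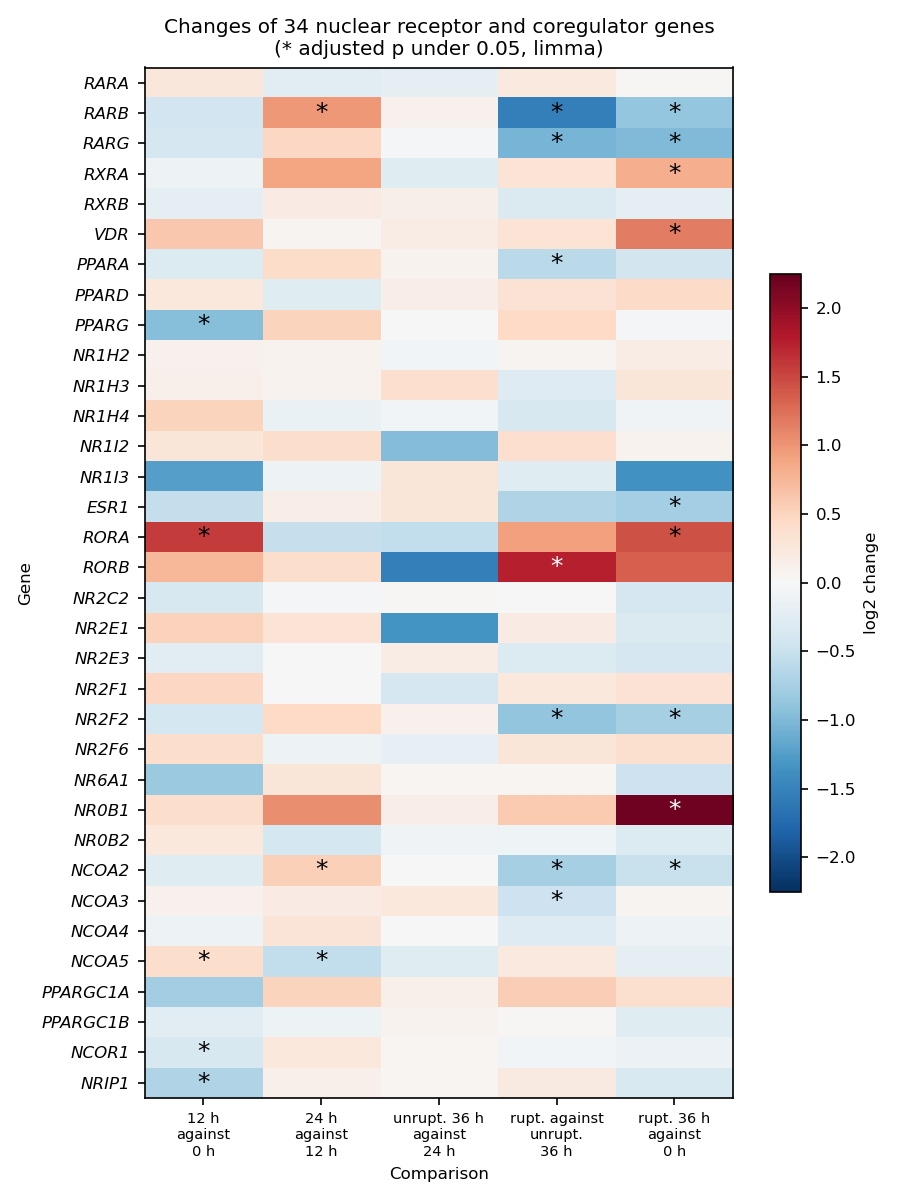
Heat map of the log2 change of each of the 34 genes (rows) in 5 comparisons between groups (columns), with asterisks on calls at an adjusted p under 0.05. The column of unruptured 36 h against 24 h follicles holds no asterisk, while the column of ruptured against unruptured follicles holds 7, of which 6 are on lower genes and 1 is on RORB.

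The retinoic acid receptors gave the largest called falls at rupture. RARG, the gamma receptor for retinoic acid, lay between 6.53 and 7.06 with a median of 6.69 in the 0 h follicles. Its levels were 6.44, 6.26, 6.34 and 6.43 at 12 h, then 6.93, 6.57, 6.77 and 7.07 at 24 h, 6.93, 6.67, 6.98 and 6.63 in unruptured and 5.49, 5.78, 5.99 and 5.74 in ruptured 36 h follicles. All 4 ruptured follicles were therefore below every other follicle of the study, and the 12 h follicles were all below those of 0 h and 24 h. RARG was lower in ruptured than in unruptured follicles, with a change of -1.05 ± 0.15 (SE), a 2.08-fold difference (adjusted p = 0.000236). It averaged 5.75 ± 0.20 in ruptured and 6.75 ± 0.21 in 0 h follicles (SD, n = 4 and 6), and limma called it lower there too (adjusted p = 5.78e-05). The step between 12 h and 24 h, 0.47 ± 0.15, did not pass (adjusted p = 0.0655). The dimmer of its 2 probe sets gave -0.40 ± 0.24 between ruptured and unruptured follicles (adjusted p = 0.365), so the fall was called with 1 of the 2.

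RARB, the beta receptor, is itself a direct target of retinoic acid through an element in its promoter. In the 0 h follicles it lay between 5.49 and 6.50 with a median of 5.69. It was 5.35, 5.30, 5.55 and 5.21 at 12 h, 6.21, 6.92, 6.38 and 5.81 at 24 h, 6.18, 6.22, 6.43 and 6.89 in unruptured and 4.49, 5.39, 4.22 and 5.48 in ruptured follicles. The 24 h and unruptured follicles were all above the 12 h ones, and the ruptured follicles were all below the unruptured ones, by more than a whole log2 unit in 2 of the 4. RARB was 2.89-fold lower in ruptured than in unruptured follicles (-1.53 ± 0.29, adjusted p = 0.00229), and lower than at 0 h by 0.88 ± 0.26 (adjusted p = 0.0286). At 24 h it was higher than at 12 h by 0.98 ± 0.29 with an adjusted p of 0.049. That last call was lost without any single array of its 2 groups except replicate 4 of 24 h, with adjusted p up to 0.161, and under quantile normalization (adjusted p = 0.0519). The call against 0 h was lost without 0 h replicate 4, ruptured replicate 5 or ruptured replicate 7 (up to 0.127). The other RARB probe set gave -0.71 ± 0.32 at rupture and was not called (adjusted p = 0.19).

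RARA, the alpha receptor, was not called with its brightest probe set. It lay between 7.89 and 8.12 at 0 h with a median of 8.08, and was 8.35, 8.47, 8.01 and 8.32 at 12 h, 7.92, 8.07, 8.15 and 8.02 at 24 h, 7.75, 7.91, 7.77 and 7.88 in unruptured and 8.16, 8.04, 8.11 and 7.89 in ruptured follicles. Its F test gave an adjusted p of 0.0637. The 6 RARA probe sets disagreed. In unruptured follicles against 0 h the second brightest was lower (-0.58 ± 0.09, adjusted p = 0.00122), while the 3 dimmest gave 0.16 ± 0.19, 0.17 ± 0.18 and 1.06 ± 0.64 and were not called. In ruptured follicles the second brightest was lower than at 0 h (-0.35 ± 0.09, adjusted p = 0.012), and another was higher by 0.55 ± 0.18 (adjusted p = 0.0456). At 12 h against 0 h all 6 had changes above 0 and none was called with limma, so the direction of RARA depended on the probe set in both 36 h groups but not at 12 h.

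RXRA, the shared partner of these receptors, lay between 4.17 and 5.52 at 0 h with a median of 4.87. It was 5.19, 5.26, 3.91 and 4.65 at 12 h, 5.49, 5.61, 5.57 and 5.87 at 24 h, 5.42, 5.38, 5.62 and 5.04 in unruptured and 5.62, 5.81, 5.59 and 5.68 in ruptured follicles. The ruptured follicles were tightly grouped and all above the 0 h range. RXRA was higher in ruptured follicles than at 0 h by 0.82 ± 0.24 (adjusted p = 0.0255), while 24 h against 12 h missed the threshold at 0.88 ± 0.26 (adjusted p = 0.0503). The first of these was lost without 0 h replicate 3 or ruptured replicate 5, 6 or 8 (adjusted p up to 0.0707), and the F call was lost with the 3' to 5' signal index of the arrays as a covariate (0.0627). RXRB, the beta partner, ranged over 7.37 to 7.65 in ruptured and 7.73 to 8.02 in unruptured follicles, and its change of -0.33 ± 0.13 was not called (adjusted p = 0.12). RXRA and RARG thus stood at opposite sides of their 0 h levels in the same ruptured follicles.

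**Figure D2:**
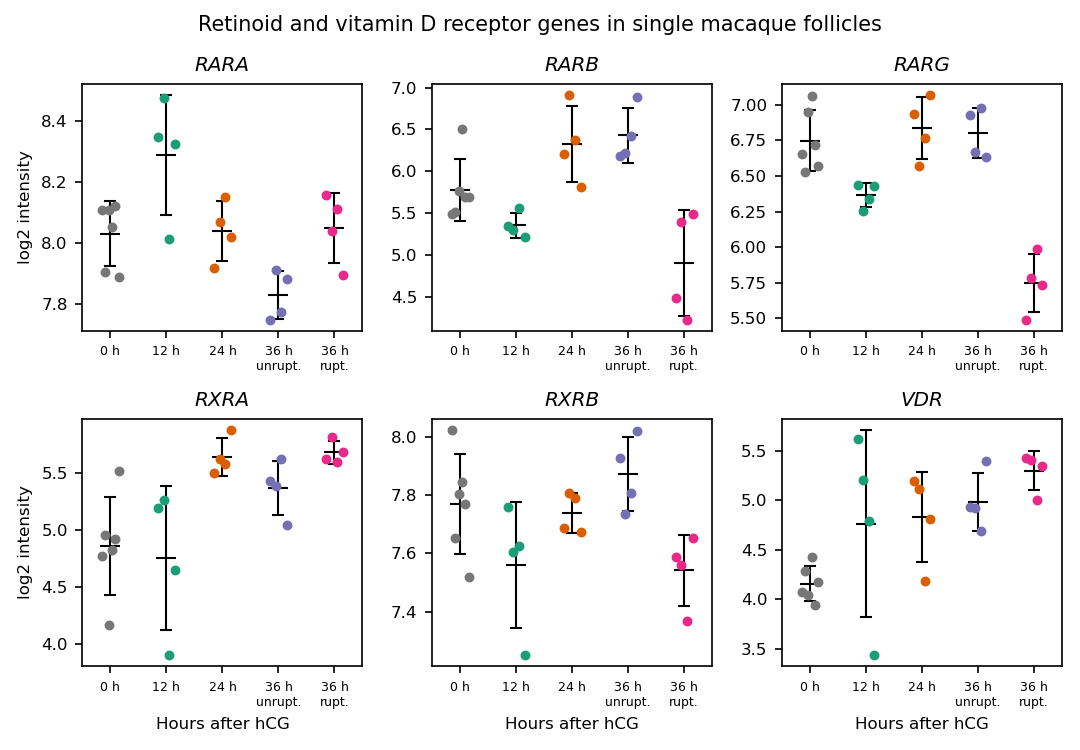
Log2 intensity of RARA, RARB, RARG, RXRA, RXRB and VDR in each follicle (points) with group means and SDs (bars), by group along the horizontal axis. The ruptured follicles of RARG sit between 5.49 and 5.99, below all others, while those of RXRA and VDR sit above the 0 h follicles.

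Of 19 genes of retinoid synthesis, transport and breakdown, 14 were measured. ALDH1A3, which makes retinoic acid from retinaldehyde, was the 1 called at 12 h, where it was higher than at 0 h by 2.60 ± 0.35 (adjusted p = 0.000155), and at 24 h it was below 12 h by 2.75 on that scale (-2.75 ± 0.39, adjusted p = 0.000436). In ruptured against unruptured follicles 2 of the 14 were higher and 1 lower, with a median change of 0.30. ALDH1A3 was higher by 2.07 ± 0.39 (adjusted p = 0.00214) and CRABP2, which carries retinoic acid to its nuclear receptors, was higher by 2.93 ± 0.74 (adjusted p = 0.0164). DHRS3, which turns retinaldehyde back into retinol, was lower by 1.26 (-1.26 ± 0.20, adjusted p = 0.000653). Against 0 h, 4 were higher and 1 lower in ruptured follicles, among them DHRS9, a retinol dehydrogenase, by 2.94 ± 0.67 (adjusted p = 0.00502). CRABP2 averaged 4.18 in unruptured follicles and DHRS9 4.24 at 0 h, both below 4.63, so the sizes of these changes are less certain. ALDH1A3 was thus higher after rupture where RARG and RARB were lower. Beside this list and those below stand the shares of all genes called higher and lower. They were 6.5% and 7.8% at 12 h against 0 h, and 5.84% and 5.02% at 24 h against 12 h. For ruptured against unruptured follicles they were 6.47% and 7.67%. Against 0 h they were 2.87% and 2.62% at 24 h, and 9.43% and 11.8% in ruptured follicles.

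VDR, the vitamin D receptor, lay in a narrow 0 h range of 3.94 to 4.42 with a median of 4.12. It was 5.62, 5.21, 4.79 and 3.44 at 12 h, 5.19, 5.12, 4.19 and 4.82 at 24 h, 4.94, 4.93, 4.69 and 5.39 in unruptured and 5.43, 5.41, 5.01 and 5.35 in ruptured follicles. All 36 h follicles were above every 0 h follicle, while at 12 h 1 follicle was below all of them and 3 above. VDR was 2.21-fold higher in ruptured follicles than at 0 h (1.14 ± 0.30, adjusted p = 0.0131), and by 0.71 ± 0.18 with 16 added before log2 (adjusted p = 0.00618). Of its other 2 probe sets, 1 gave 1.70 ± 0.54 (adjusted p = 0.038) and 1 gave 0.46 ± 0.29 and was not called (adjusted p = 0.347). All 8 listed vitamin D target and ligand genes were measured, and in ruptured follicles against 0 h 1 was higher and 1 lower with a median of -0.28. CYP24A1, the enzyme that inactivates vitamin D and a standard VDR target, was the lower one at -0.39 ± 0.09 (adjusted p = 0.00465). CAMP, an antimicrobial peptide, was the higher one at 1.15 ± 0.35 (adjusted p = 0.0314). It was dim, with a mean of 3.75 at 0 h, and its 2 groups overlapped. CYP2R1, which forms the circulating precursor of the active hormone, was lower in ruptured than in unruptured follicles by 0.95 (-0.95 ± 0.22, adjusted p = 0.0087), and CYP27B1, which forms the active hormone itself, was higher by 0.72 ± 0.21 (adjusted p = 0.0338).

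RORA, an orphan receptor that activates clock genes through response elements shared with the NR1D repressors, had the largest called rise at 12 h. It lay between 5.03 and 5.87 with a median of 5.58 at 0 h. The 12 h follicles had 7.02, 7.28, 6.32 and 7.67, the 24 h follicles 6.62, 7.33, 5.72 and 6.53, the unruptured 36 h follicles 5.55, 6.48, 6.43 and 5.54 and the ruptured ones 7.01, 6.81, 6.77 and 7.14. Every 12 h and every ruptured follicle was above the whole 0 h range, and the unruptured follicles fell into 2 within and 2 above it. RORA was 2.98-fold higher at 12 h than at 0 h (1.57 ± 0.30, adjusted p = 0.00253) and 2.70-fold higher in ruptured follicles than at 0 h (1.43 ± 0.30, adjusted p = 0.00264). Ruptured against unruptured follicles differed by 0.93 ± 0.33, which was not called (adjusted p = 0.0859), although the groups did not overlap. The other RORA probe set, which correlated with the brightest at 0.95 over the 22 arrays, gave 2.28 ± 0.43 at 12 h (adjusted p = 0.0022) and 2.10 ± 0.43 in ruptured follicles (adjusted p = 0.00211).

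RORB, its relative best known from neural tissue and retina, was dim. It lay between 2.55 and 4.00 at 0 h with a median of 3.56, and was 4.40, 3.79, 3.20 and 5.04 at 12 h, 3.84, 4.40, 5.12 and 4.67 at 24 h, 2.60, 2.13, 3.49 and 3.62 in unruptured and 5.53, 3.34, 5.27 and 4.69 in ruptured follicles. A single ruptured follicle was within the unruptured range and the other 3 above it. RORB was higher in ruptured than in unruptured follicles by 1.75 ± 0.50 (adjusted p = 0.0331), and by 0.86 ± 0.24 with 16 added to the intensities before log2 (adjusted p = 0.0202). Leaving out unruptured replicate 1 or 2 or ruptured replicate 5, 7 or 8 ended that call (adjusted p up to 0.111). The F call was lost without 14 of the 22 arrays (up to 0.094).

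Among 13 listed genes of the circadian clock, 10 were measured, and 2 were higher and 1 lower at 12 h than at 0 h. Control of these genes by RORA or its relatives was not tested. NFIL3, a basic leucine zipper repressor, was higher by 1.50 ± 0.23 (adjusted p = 0.000379) and BHLHE40, a repressor of the clock activator pair, by 1.24 ± 0.26 (adjusted p = 0.00477). CRY2, a clock repressor, was lower (-0.65 ± 0.17, adjusted p = 0.0215). ARNTL, the clock activator that RORA is known to raise, changed by 0.70 ± 0.23 at 12 h and was not called (adjusted p = 0.0652). In ruptured against unruptured follicles 2 were higher and 1 lower, with NFIL3 higher by 1.50 ± 0.25 (adjusted p = 0.000751) and TEF, a clock output activator, lower (-0.82 ± 0.17, adjusted p = 0.00444).

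NR2F2, known as COUP-TFII and expressed in theca and stromal cells of mouse and human ovary, lay between 10.67 and 11.40 at 0 h with a median of 11.22. It was 10.73, 10.83, 10.86 and 10.59 at 12 h, 11.28, 11.25, 11.21 and 11.05 at 24 h, 11.46, 11.15, 11.17 and 11.37 in unruptured and 10.34, 10.42, 10.26 and 10.60 in ruptured follicles. The ruptured follicles were all below the 0 h, 24 h and unruptured ones, and overlapped only with 12 h. NR2F2 was 1.84-fold lower in ruptured than in unruptured follicles (-0.88 ± 0.14, adjusted p = 0.000616), and lower than at 0 h by 0.74 ± 0.13 (adjusted p = 0.000535). Its second probe set moved further, with -1.03 ± 0.16 against unruptured follicles (adjusted p = 0.000628) and -1.46 ± 0.15 against 0 h (adjusted p = 3.35e-06). That probe set was also lower at 12 h than at 0 h (-0.62 ± 0.15, adjusted p = 0.0133), where the brightest one missed the threshold (-0.40 ± 0.13, adjusted p = 0.0606).

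Beside the fall of NR2F2 at rupture, 0 of 9 measured theca and stroma markers were called in ruptured against unruptured follicles with limma, with a median change of -0.12, and the summed level of that list was 14.34 to 14.74 in ruptured and 14.46 to 14.74 in unruptured follicles. NR2F1, the close paralog of NR2F2, had 9.51 to 10.13 at 0 h with a mean of 9.93. It was 10.73, 9.82, 10.73 and 10.29 at 12 h, 10.41, 10.32, 10.38 and 10.43 at 24 h, 10.30, 9.62, 9.80 and 10.33 in unruptured and 10.28, 10.08, 10.48 and 10.19 in ruptured follicles. No comparison called it, and its difference between 12 h and 0 h was 0.47 ± 0.18 (adjusted p = 0.13). NR2F6, the third relative, was not called with its brighter probe set, while the dimmer one was higher in ruptured than in unruptured follicles (1.19 ± 0.32, adjusted p = 0.0215). With the brightest probe sets, NR2F2 was the only 1 of the 3 NR2F genes called at rupture.

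NR0B1, known as DAX1, is a repressor that binds the steroidogenic factor NR5A1 and dampens steroid hormone synthesis. At 0 h it spread between 0.52 and 3.77 with a median of 2.31. The levels were 2.20, 2.84, 3.01 and 2.04 at 12 h, 3.87, 3.46, 3.82 and 3.16 at 24 h, 3.56, 2.46, 4.50 and 4.42 in unruptured and 5.01, 3.70, 4.22 and 4.36 in ruptured follicles. The lowest ruptured follicle was just below the highest 0 h follicle, so these groups overlapped. NR0B1 was higher in ruptured follicles than at 0 h by 2.19 ± 0.51 (adjusted p = 0.00529), and 1.60 ± 0.51 in unruptured follicles was not called (adjusted p = 0.0804). These are low intensities with no detection calls, and with 16 added before log2 the ruptured change of NR0B1 was 0.78 ± 0.17 and stayed called (adjusted p = 0.00218). NR0B2, its relative that represses bile acid synthesis in liver, averaged 4.40 ± 0.37 in ruptured and 4.71 ± 0.36 in 0 h follicles (SD, n = 4 and 6) and was not called in any comparison.

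**Figure D3:**
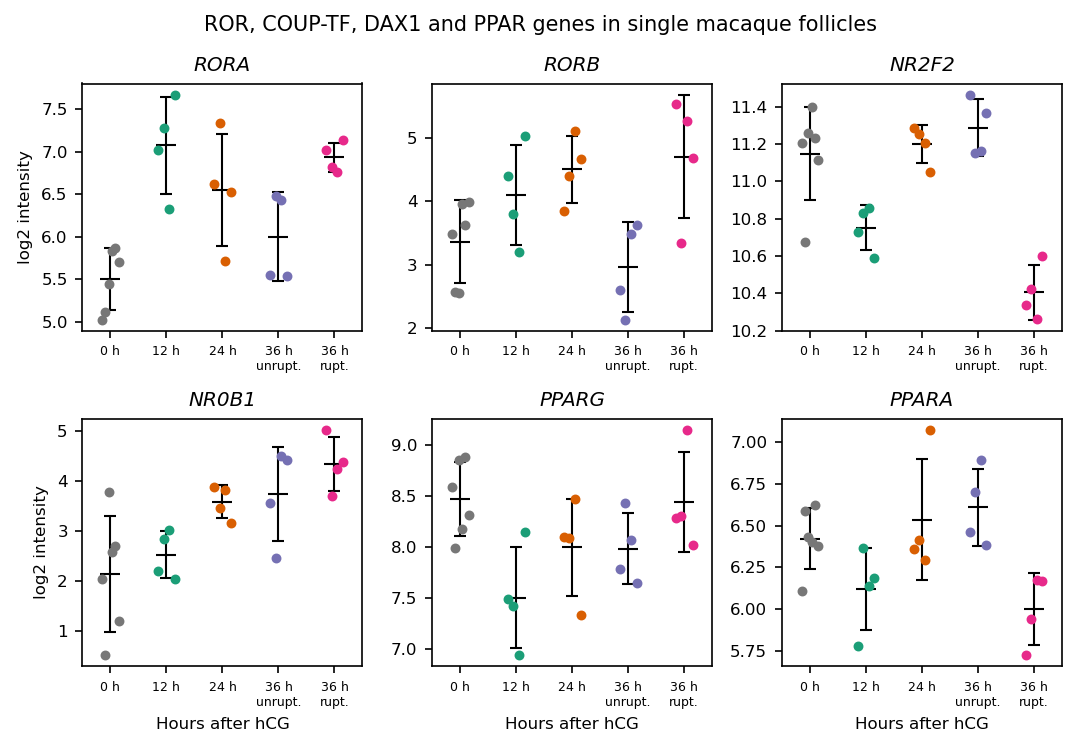
Log2 intensity of RORA, RORB, NR2F2, NR0B1, PPARG and PPARA in each follicle (points) with group means and SDs (bars), by group along the horizontal axis. RORA at 12 h and after rupture lies above the 0 h range of 5.03 to 5.87, and NR2F2 after rupture lies between 10.26 and 10.60, below the unruptured follicles.

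PPARG, the fatty acid sensor that drives fat cell formation and that granulosa cells of rat express before the gonadotropin surge, lay between 8.00 and 8.88 at 0 h with a median of 8.45. It was 7.50, 7.43, 6.95 and 8.15 at 12 h, 8.10, 8.09, 8.47 and 7.34 at 24 h, 7.79, 8.44, 8.07 and 7.65 in unruptured and 8.29, 8.31, 9.15 and 8.02 in ruptured follicles. At 12 h 3 of 4 follicles were below the 0 h range and 1 was within it, and all ruptured follicles were above 8.00. PPARG was lower at 12 h than at 0 h (-0.96 ± 0.27, a 1.95-fold difference, adjusted p = 0.0322), and no later group was called against 0 h. The call at 12 h was lost when any of 0 h replicates 1, 3 and 5 or 12 h replicates 1, 2 and 3 was left out, with adjusted p up to 0.115, and was also lost, at -0.74, with the 3' to 5' index as a covariate (0.155). That index averaged 0.702 ± 0.102 at 12 h, with a highest value of 0.853, against 0.613 ± 0.070 at 0 h (SD, n = 4 and 6), and its part in the result was not tested further.

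PPARA, which turns on fatty acid oxidation, lay between 6.11 and 6.62 at 0 h with a median of 6.42. It was 5.78, 6.37, 6.14 and 6.18 at 12 h, 6.36, 6.41, 6.29 and 7.07 at 24 h, 6.46, 6.70, 6.89 and 6.38 in unruptured and 5.73, 5.94, 6.17 and 6.17 in ruptured follicles. The ruptured follicles were all below the unruptured ones. PPARA was lower in ruptured than in unruptured follicles (-0.61 ± 0.18, adjusted p = 0.0417), a call lost when any of unruptured replicates 1, 2 and 3 or ruptured replicates 5 and 6 was left out (0.131 at most) and with the 3' to 5' index as a covariate (0.0674). PPARD, the third member, averaged 6.20 ± 0.23 in ruptured and 5.76 ± 0.22 in 0 h follicles (SD, n = 4 and 6), and that difference of 0.44 ± 0.18 was not called (adjusted p = 0.124).

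Of 14 peroxisome proliferator receptor targets, 9 were measured, and 2 were higher at 24 h than at 12 h, PDK4 and CPT1A, while 2 were lower in ruptured than in unruptured follicles, PDK4 and LPL, where the median was -0.47. PDK4, a kinase that turns off glucose oxidation, averaged 9.14 at 24 h against 6.64 at 12 h (2.49 ± 0.34, adjusted p = 0.00032), and 6.06 in ruptured against 8.34 in unruptured follicles (-2.27 ± 0.34, adjusted p = 0.000337). LPL, which frees fatty acids from lipoproteins, was lower after rupture by 0.74 (-0.74 ± 0.18, adjusted p = 0.0109). FABP3, a fatty acid carrier, was lower at 12 h than at 0 h (-0.89 ± 0.27, adjusted p = 0.0486), and was the 1 target called there.

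The oxysterol and bile acid receptors did not pass in any comparison with their brightest probe sets. NR1H3, the alpha liver X receptor, lay between 4.57 and 5.65 at 0 h with a median of 5.17, and was 5.30, 4.99, 5.75 and 4.95 at 12 h, 5.14, 5.10, 5.53 and 5.55 at 24 h, 5.91, 5.41, 5.94 and 5.57 in unruptured and 5.18, 4.83, 5.57 and 6.07 in ruptured follicles. Its unruptured follicles overlapped with every other group, and its smallest adjusted p between groups was 0.261, for 0.57 ± 0.26 in unruptured follicles against 0 h. NR1H2, the beta form, averaged 7.60 ± 0.28 in ruptured and 7.43 ± 0.12 in 0 h follicles (SD, n = 4 and 6). NR1H4, the bile acid receptor, lay between 5.37 and 6.19 at 0 h with a median of 5.65, and was 6.00, 6.08, 6.64 and 6.19 at 12 h, 5.84, 6.12, 5.77 and 6.55 at 24 h, 5.94, 5.87, 5.99 and 6.21 in unruptured and 4.97, 5.86, 5.57 and 6.16 in ruptured follicles. Its 12 h difference of 0.51 ± 0.22 was not called (adjusted p = 0.168). The other NR1H4 probe sets correlated with the brightest at -0.05 and -0.07 over the 22 arrays, so its course depended on the probe set.

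Of 9 liver X receptor targets 6 were measured, and in ruptured against unruptured follicles 2 were higher and 0 lower with a median of 0.47. SREBF1, the activator of fatty acid synthesis genes, was higher by 0.81 ± 0.17 (adjusted p = 0.00528) and LPCAT3, a phospholipid remodelling enzyme, by 0.89 ± 0.26 (adjusted p = 0.0343). The same pair was higher at 12 h than at 0 h, SREBF1 by 0.89 ± 0.16 (adjusted p = 0.00143) and LPCAT3 by 0.82 ± 0.23 (adjusted p = 0.0335). Of 9 thyroid hormone axis genes, 6 were measured and 1 was called at rupture, SLC16A10, a thyroid hormone transporter, higher by 1.63 ± 0.37 (adjusted p = 0.00855).

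Of the remaining receptors only ESR1 was called, and most were dim. ESR1, the alpha estrogen receptor, lay between 3.61 and 5.08 at 0 h with a median of 4.55, and was 3.87, 3.74, 4.26 and 4.05 at 12 h, 4.34, 3.89, 4.23 and 4.06 at 24 h, 4.80, 4.66, 3.95 and 4.21 in unruptured and 4.02, 3.20, 3.93 and 3.79 in ruptured follicles. It was lower in ruptured follicles than at 0 h (-0.77 ± 0.24, adjusted p = 0.0353), with overlapping groups. With 16 added before log2 the change was -0.41 ± 0.13 (adjusted p = 0.0365). The call was lost when any of 0 h replicates 2 to 5 or ruptured replicates 6 and 8 was left out (0.143 at most). NR6A1, a repressor of germ cells, lay between 3.72 and 4.96 at 0 h with a median of 4.70, and was 3.76, 3.77, 3.56 and 3.90 at 12 h, 4.15, 2.92, 4.67 and 4.34 at 24 h, 3.86, 4.65, 4.04 and 3.68 in unruptured and 3.89, 4.25, 4.38 and 3.92 in ruptured follicles. The 12 h difference of -0.83 ± 0.29 was not called (adjusted p = 0.0795). The other NR6A1 probe sets correlated with this one at only 0.05 and 0.04 over the 22 arrays.

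NR2C2, a broadly expressed orphan receptor, averaged 6.47 ± 0.90 at 12 h and 6.83 ± 0.45 at 0 h (SD, n = 4 and 6) and was not called. The xenobiotic receptors NR1I2 and NR1I3, the neural stem cell receptor NR2E1 and the photoreceptor factor NR2E3 averaged 2.16, 2.29, 1.50 and 3.91 over all arrays, below the middle of the arrays, and none was called in any comparison.

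Among the coactivators, NCOA2 and NCOA3 are p160 proteins that bring histone acetylation to bound receptors. NCOA2 lay between 8.12 and 8.39 at 0 h with a median of 8.32. It was 7.82, 8.25, 8.18 and 7.78 at 12 h, 8.57, 8.57, 8.55 and 8.46 at 24 h, 8.54, 8.50, 8.60 and 8.50 in unruptured and 7.55, 7.92, 7.90 and 7.79 in ruptured follicles. The 24 h and unruptured follicles were all above the 0 h range, and the ruptured ones were all below it. NCOA2 was higher at 24 h than at 12 h (0.53 ± 0.12, adjusted p = 0.0111), lower in ruptured than in unruptured follicles (-0.74 ± 0.12, a 1.68-fold difference, adjusted p = 0.000653) and lower than at 0 h after rupture (-0.50 ± 0.11, adjusted p = 0.00378). Of its other 2 probe sets, the brighter gave -0.64 ± 0.17 at rupture (adjusted p = 0.0251) and the dimmer -0.48 ± 0.19, which was not called (adjusted p = 0.129).

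NCOA3 lay between 8.06 and 8.40 at 0 h with a median of 8.09, and was 8.12, 8.31, 8.45 and 8.07 at 12 h, 8.46, 8.56, 8.37 and 8.32 at 24 h, 8.81, 8.61, 8.64 and 8.60 in unruptured and 8.05, 8.22, 8.23 and 8.29 in ruptured follicles. The unruptured follicles were above all others, including those of 24 h. NCOA3 was lower in ruptured than in unruptured follicles (-0.47 ± 0.11, adjusted p = 0.0131) and higher in unruptured follicles than at 0 h (0.52 ± 0.10, adjusted p = 0.0066). Of its 6 probe sets, 1 besides the brightest was called at rupture, at -0.58 ± 0.15 (adjusted p = 0.0179), and the other 4 gave changes between -0.94 and -0.05. In unruptured follicles against 0 h only the brightest was called.

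NCOA5, which binds estrogen receptors, followed another time course. It lay between 7.90 and 8.38 at 0 h with a median of 8.13, and was 8.60, 8.54, 8.51 and 8.49 at 12 h, 7.99, 8.03, 7.95 and 7.93 at 24 h, 7.78, 7.68, 7.63 and 7.72 in unruptured and 7.76, 7.76, 8.07 and 8.10 in ruptured follicles. All 12 h follicles were above every other follicle, and all unruptured ones below the 0 h and 24 h ranges. NCOA5 was higher at 12 h than at 0 h (0.40 ± 0.11, adjusted p = 0.02), lower at 24 h than at 12 h (-0.56 ± 0.12, adjusted p = 0.00611) and lower in unruptured 36 h follicles than at 0 h (-0.43 ± 0.11, adjusted p = 0.0232). The first was lost without 12 h replicate 1 (0.0628), and the last when 0 h replicate 1 or any of unruptured replicates 2 to 4 was left out (0.0757 at most). The second probe set gave 0.13 ± 0.13 at 12 h against 0 h and was not called (adjusted p = 0.642). NCOA4, which also delivers ferritin to lysosomes, lay between 10.29 and 10.60 at 0 h and was called in no comparison. It averaged 10.30 at 12 h and 10.59 at 24 h, and its difference at rupture was -0.29 ± 0.12 (adjusted p = 0.166).

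PPARGC1A, the coactivator that promotes mitochondrial biogenesis, was dim. It lay between 3.66 and 4.36 at 0 h with a median of 4.27, and was 3.30, 2.87, 3.90 and 3.52 at 12 h, 4.35, 4.22, 3.89 and 3.14 at 24 h, 4.08, 3.99, 3.96 and 3.98 in unruptured and 4.24, 4.82, 5.27 and 3.87 in ruptured follicles. The 12 h difference of -0.79 ± 0.27 was not called (adjusted p = 0.0728). Its paralog PPARGC1B was not called with the brightest of its 4 probe sets, at -0.25 ± 0.16 for 12 h against 0 h (adjusted p = 0.401). The second brightest was lower at 12 h (-0.88 ± 0.24, adjusted p = 0.0235), and the 2 dimmest, at -0.26 ± 0.38 and -1.57 ± 0.79, were not called. Of 12 listed mitochondrial partners of PPARGC1A, 6 were measured, and 2 were higher and 0 lower in ruptured than in unruptured follicles. They were PPRC1, a relative of PPARGC1A (1.17 ± 0.13, adjusted p = 3.77e-05), and GABPB1, a subunit of nuclear respiratory factor GABP (1.26 ± 0.16, adjusted p = 8.73e-05). At 24 h against 12 h the same 2 genes were lower and 0 were higher, PPRC1 (-1.16 ± 0.13, adjusted p = 9.82e-05) and GABPB1 (-0.84 ± 0.16, adjusted p = 0.00311). At 24 h against 0 h, PPRC1 (-0.74 ± 0.12, adjusted p = 0.00168) and TFAM, the mitochondrial transcription factor (-0.40 ± 0.11, adjusted p = 0.0414), were lower.

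**Figure D4:**
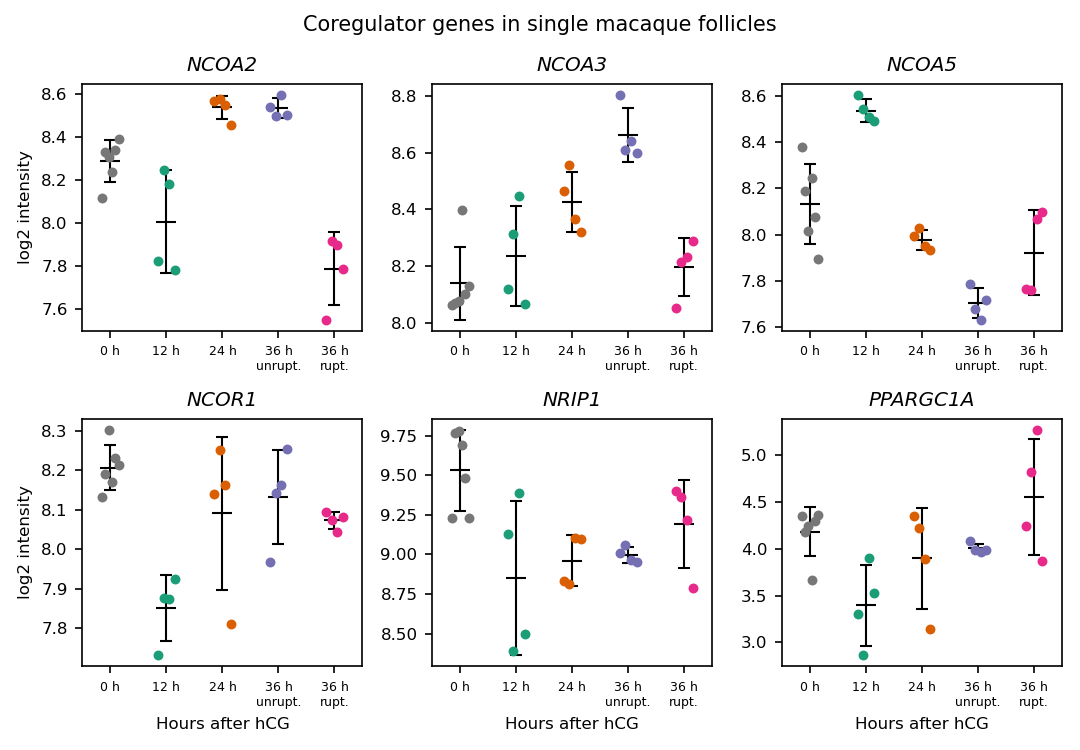
Log2 intensity of NCOA2, NCOA3, NCOA5, NCOR1, NRIP1 and PPARGC1A in each follicle (points) with group means and SDs (bars), by group along the horizontal axis. NCOA2 and NCOA3 are higher in unruptured than in ruptured follicles of the same hour, and NCOA5 is highest at 12 h, between 8.49 and 8.60.

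Both corepressors were lower at 12 h by their brightest probe sets. NCOR1, which holds histone deacetylase 3 at unliganded receptors, lay between 8.13 and 8.30 at 0 h with a median of 8.20, and was 7.73, 7.88, 7.87 and 7.92 at 12 h, 8.14, 8.25, 8.16 and 7.81 at 24 h, 7.97, 8.14, 8.16 and 8.26 in unruptured and 8.09, 8.07, 8.04 and 8.08 in ruptured follicles. All 12 h follicles were below the 0 h range. NCOR1 was lower at 12 h (-0.36 ± 0.10, adjusted p = 0.0238), a call lost when 0 h replicate 3 or either of 12 h replicates 1 and 2 was left out (0.0854 at most) and with the 3' to 5' index as a covariate (0.0619). None of the other 4 NCOR1 probe sets was called at 12 h with limma. From the brighter to the dimmer they gave -0.44 ± 0.14 (adjusted p = 0.0593), -0.18 ± 0.26, 0.09 ± 0.16 and -0.28 ± 0.22.

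NRIP1 lay between 9.23 and 9.78 at 0 h with a median of 9.59. It was 9.13, 8.39, 9.39 and 8.50 at 12 h, 8.83, 8.82, 9.10 and 9.10 at 24 h, 9.01, 9.06, 8.97 and 8.95 in unruptured and 9.40, 9.36, 9.22 and 8.79 in ruptured follicles. The 24 h and unruptured follicles were all below the 0 h range, and the 12 h follicles were split, with 1 inside that range. NRIP1 was 1.60-fold lower at 12 h than at 0 h (-0.68 ± 0.19, adjusted p = 0.0266), a call lost when any of 0 h replicates 2, 3 and 4 or 12 h replicates 2 and 4 was left out (0.112 at most). Its other 2 probe sets, which correlated with the brightest at 0.83 and 0.86 over the 22 arrays, were lower at 12 h by 0.59 ± 0.16 (adjusted p = 0.0229) and 0.63 ± 0.14 (adjusted p = 0.00866).

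Those 2 NRIP1 probe sets were also lower at 24 h than at 0 h, at -0.64 ± 0.16 (adjusted p = 0.03) and -0.61 ± 0.14 (adjusted p = 0.0224), and in ruptured follicles than at 0 h, at -0.65 ± 0.16 (adjusted p = 0.00744) and -0.58 ± 0.14 (adjusted p = 0.00907). The second of them was lower in unruptured follicles than at 0 h as well (-0.66 ± 0.14, adjusted p = 0.0118). The brightest gave -0.34 ± 0.19 in ruptured follicles (adjusted p = 0.266). All 3 NRIP1 probe sets were therefore called lower at 12 h, and whether a later group was called against 0 h depended on the probe set.

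**Figure D5:**
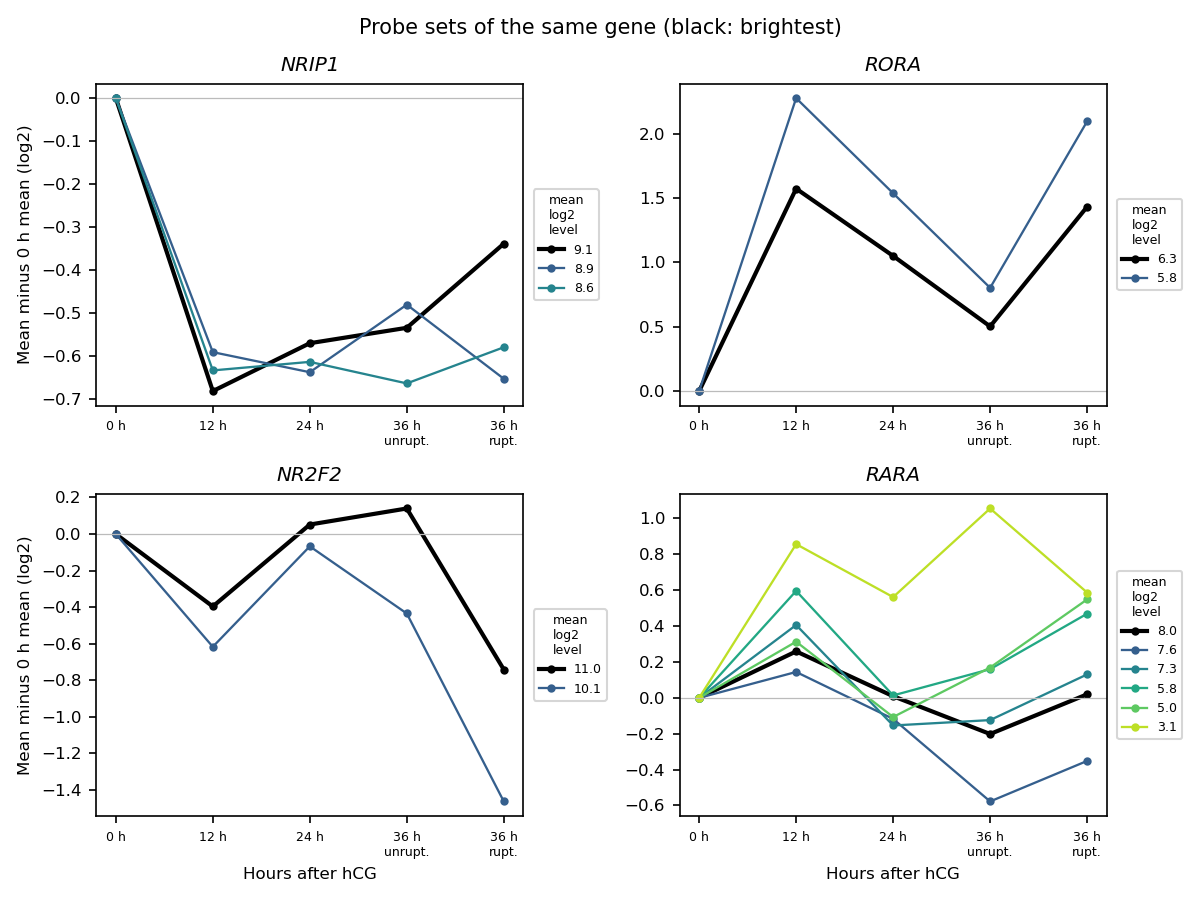
Group mean minus 0 h mean (log2) for each probe set of NRIP1, RORA, NR2F2 and RARA, one line per probe set and the brightest in black, by group along the horizontal axis. The lines of NRIP1, RORA and NR2F2 share their direction at 12 h, and those of RARA in ruptured follicles spread to both sides of 0.

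Beside the lower NRIP1 and PPARG at 12 h, 4 of 9 measured granulosa markers were lower and 0 higher, with a median of -1.22, and their summed level was 13.30 to 14.17 at 12 h against 14.05 to 14.68 at 0 h. Of 11 measured macrophage markers, 4 were higher and 0 lower with a median of 0.80, and their summed level was 11.19 to 12.60 at 12 h against 10.58 to 11.51 at 0 h. Of all genes 6.5% were higher and 7.8% lower at 12 h than at 0 h. Of 9 measured theca and stroma markers, 2 were lower and 1 higher at 12 h than at 0 h, with a median of -0.08. Against 0 h the granulosa median stayed low in all later groups. It was -1.26 for 24 h, -1.31 for 36 h before rupture and -1.23 after it. PPARG averaged 8.44 after rupture against 8.47 at 0 h, and NRIP1 averaged 9.19 against 9.53. The part of any of these marker lists in the receptor changes was not tested. At rupture 1 granulosa marker was higher, INHBA by 3.20 ± 0.46 (adjusted p = 0.000245), and 1 was lower, GATM (-1.32 ± 0.27, adjusted p = 0.00425). Of the macrophage markers 0 were called there with limma. The medians of the granulosa and macrophage lists were -0.04 and -0.17 in ruptured against unruptured follicles. Of 6 measured lymphocyte markers, 0 were called at 12 h or at rupture with limma. Of 9 measured endothelial markers 0 were called at 12 h and 1 was lower at rupture, and of 9 measured oocyte markers 0 were called at 12 h and 1 was higher at rupture. Of 11 listed reference genes 6 were measured, and at rupture 1 was higher and 0 lower, with a median of 0.10. It was HPRT1, by 1.05 ± 0.13 (adjusted p = 8.43e-05). At 12 h against 0 h HPRT1 was higher (0.68 ± 0.12, adjusted p = 0.00132) and SDHA lower (-0.75 ± 0.14, adjusted p = 0.00185).

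Of 26 coregulators outside the NCOA, NCOR, NRIP and PPARGC families, 20 were measured, and in ruptured against unruptured follicles 0 were higher and 5 lower, with a median change of -0.11. Of all genes 6.47% were higher and 7.67% lower there, with a median change of -0.06. PRMT2, an arginine methyltransferase that coactivates estrogen receptors, averaged 8.69 in ruptured and 9.65 in unruptured follicles (-0.96 ± 0.20, adjusted p = 0.00494). TRERF1, a zinc finger activator of CYP11A1, averaged 6.83 in ruptured and 7.75 in unruptured follicles (-0.93 ± 0.17, adjusted p = 0.00221), and BRD8, a bromodomain partner of thyroid hormone receptors, was lower as well (-0.76 ± 0.16, adjusted p = 0.00394). At 12 h 3 were lower than at 0 h and 0 higher, TRERF1 (-0.89 ± 0.16, adjusted p = 0.0015), PRMT2 and CITED2. CITED2, a binder of the coactivators CBP and p300, was then higher at 24 h than at 12 h by 1.49 ± 0.19 (adjusted p = 0.000174).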

How the data were processed

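Total RNA of 22 follicles was hybridised to Affymetrix rhesus macaque arrays, 1 per follicle. The deposited values are linear intensities, 1 for each of 52865 probe sets, made with RMA per the submitters' processing notes, with its version not given in the sources used here. No detection calls or scanner values were used. Log2 of the deposited values was taken, 99 control probe sets were left out, and 52766 were fitted in limma 3.58.1 (R 4.3.3) with a mean for each of the 5 groups, no covariate, empirical Bayes moderation and Benjamini-Hochberg adjustment over all of them within each test, at a threshold of 0.05. The platform's annotation gave 1 symbol to 24956 probe sets, several to 361 and none to 27449, and a gene was read from its brightest probe set with 1 symbol. Errors are standard errors of the fit unless SD is written, and a summed level is log2 of a list's summed intensities.

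Values per follicle were given for the 10 genes called in the F test, a panel of receptors and coregulators, and the other genes called in a comparison. For each list, at most the 3 largest called changes of a comparison were named. The members and lists were chosen with earlier results of these data known. The script was tested on simulated data. The labels do not say whether replicate numbers pair follicles, and they were not treated as pairs. The deviations of same-numbered follicles from their group means correlated at -0.03 on average over 26 pairs, and 1 pair exceeded 0.1. Over 166 differently numbered pairs the average was 0.01, and 15 exceeded 0.1. Such correlations cannot exclude a shared animal or batch. Alternatives were quantile normalization, 16 added before log2, array weights, brighter probe sets only, the probe set with the largest SD, fits of 2 groups, the 3' minus 5' probe set index as a covariate, a replicate block and leaving out each array.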

Additional observations from a re-analysis of the deposited data

Results flagged for a closer look

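In 5 of 105 groups of follicles, over the 21 genes given per follicle and tested for this, 1 follicle stood apart from the rest of its group by Dixon's test, where chance alone gives about 1 in 20. 3 of the 5 were the same array, 0 h replicate 4. It had NCOA3 at 8.40 against 8.06 to 8.13 in the other 0 h follicles, RARB at 6.50 against 5.49 to 5.76, and PPARGC1A at 3.66 against 4.18 to 4.36. In 0 h replicate 6, NR6A1 was 3.72 against 4.62 to 4.96 in the others. In 24 h replicate 4, PPARA was 7.07 against 6.29 to 6.41 in the others. Without 0 h replicate 4, RARB lost its call in ruptured follicles against 0 h.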

How the results depend on the processing

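No called value reversed under the alternatives checked gene by gene. The probe set with the largest SD was compared by counts only. Of 36 called values, F tests included, 24 kept their call without any 1 array and 7 kept it in all settings checked gene by gene. Most of the others were lost with the replicate block. In ruptured follicles against 0 h, NCOA2, NR0B1, NR2F2, RORA and VDR lost their calls with the block and in no other such setting (limma adjusted p from 0.0944 to 0.291). Counts of the 34 genes called moved as follows. The setting with brighter probe sets only did not test the 9 genes with a mean below 4.63. The share of all genes called was not taken under the alternatives, so no count below is compared with genes in general. At 12 h against 0 h (5 called) they were 10 with brighter probe sets only, 1 in a fit of the 2 groups only and 1 with the replicate block. At 24 h against 12 h (3) they were 5 with 16 added before log2, 6 with brighter probe sets only and 0 in the 2-group fit. In ruptured against unruptured follicles (7) they were 3 in the 2-group fit and 0 with the replicate block, where the groups share no number. At 24 h against 0 h (0) they were 2 with 16 added and 3 with brighter probe sets. In unruptured 36 h follicles against 0 h (2) they were 1 with the block and 1 with the probe set of largest SD. Ruptured follicles against 0 h had 1 with the block in place of 9, and the F test 5 in place of 10. Numbers 7 and 8 occur only among ruptured follicles, so with the block the comparison of ruptured with 0 h follicles rests on numbers 5 and 6. Smaller counts with fewer samples or numbers as terms also come with fewer residual degrees of freedom. Other causes were not tested. Leaving out 1 array gave 9 to 14 for the F test, 2 to 6 at 12 h against 0 h, 2 to 3 at 24 h against 12 h, 0 to 0 for unruptured 36 h against 24 h, 5 to 7 at rupture, 0 to 1 at 24 h against 0 h, 1 to 3 for unruptured and 7 to 10 for ruptured follicles against 0 h. At 12 h the count was 2 without 0 h replicate 3 or 12 h replicate 1 and 3 without 12 h replicate 2. It was 1 at 24 h against 0 h without 0 h replicate 6 or 24 h replicate 3, and 1 in unruptured follicles without 0 h replicate 1 or unruptured replicate 3 or 4.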
